A study of Homo sapiens with 2 samples.

Results

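The miR-99/100 and miR-125 miRNAs were followed in small RNA sequencing of Jurkat cells. They are the 5 mature miRNAs hsa-miR-99a-5p, hsa-miR-99b-5p, hsa-miR-100-5p, hsa-miR-125a-5p and hsa-miR-125b-5p (the species prefix is dropped from here on), picked by name from the deposited table of 1450 mature human miRNAs, and all 5 were found in it. The study asked how overexpression of the long noncoding RNA PELATON, called lnc-CEBPB-13 in the sample labels, changes miRNA levels. Jurkat is an immortalized line from a human T-cell leukemia. The overexpression group was infected with a lentivirus carrying PELATON and the control group with a control lentivirus, and both were selected with puromycin to obtain stable lines. GEO lists 1 sample in each group.

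Each deposited group value is a mean normalized count, that is, reads of a miRNA divided by a size factor for the depth of its library. Every group mean could be split into whole reads of 2 libraries, which are called A and B here without any pairing between the groups. By the sample labels, the overexpression libraries held 2052494 and 1177485 miRNA reads, against 2615868 and 2663279 for the control libraries. Groups are called by these labels throughout. Whether separate cultures lie behind the 2 libraries of a group is not given in the sources used here, so p-values measure only the spread between these libraries, which may be technical. The table lists miRNAs only, so the group labels could not be checked against PELATON itself. Every direction given here rests on the sample labels and would turn round if those of the groups were exchanged. The deposited ratio column runs the other way, as control over overexpression. From its sequencing, the study reports miR-10b-5p as lowered by PELATON overexpression, whereas by these labels it was higher. For this miRNA the study thus read the data against the direction used here. All 8 miRNAs of a list of T cell and leukocyte miRNAs had reads in all 4 libraries, with summed normalized counts of 363544 and 343598 in the overexpression libraries, against 366583 and 388415 in control libraries. Most of this sum was miR-181a-5p, with 239781 and 236159 with overexpression and 248273 and 258581 in control, so it says little about the others. MiR-155-5p had only 3 and 7 reads with overexpression and 4 and 13 in control.

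MiRNAs guide Argonaute proteins to messenger RNAs, and pairing through the seed near the 5′ end of the miRNA lowers the output of the target. The miR-99/100 family is known for restraining MTOR and the growth factor receptor IGF1R, and the miR-125 family for acting in blood stem cells and lymphocytes and for its part in leukemia. In the human genome the members lie in 3 clusters of related build, each with a miR-99/100 gene, a let-7 gene and a miR-125 gene.

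The mature sequences are shown because they tell which members share targets and which the reads can hardly tell apart. They are from RefSeq on GRCh38.p14, written 5′ to 3′, with the seed (bases 2 to 8) in capitals.
miR-99a-5p: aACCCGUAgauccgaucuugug
miR-100-5p: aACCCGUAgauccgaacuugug
miR-99b-5p: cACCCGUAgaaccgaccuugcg
miR-125a-5p: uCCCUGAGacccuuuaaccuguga
miR-125b-5p: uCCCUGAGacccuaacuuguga

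The seed ACCCGUA was held by 3 miRNAs of the table, all of them members, and the seed CCCUGAG by the other 2 members alone. These counts cover the 1285 of 1450 listed miRNAs for which RefSeq gave a sequence. Counted from 1 at the 5′ end of miR-99a-5p, miR-100-5p differed from it by the single change U16A. MiR-99b-5p differed from miR-99a-5p by A1C, U11A, U16C and U21C. MiR-125a-5p has 24 bases and miR-125b-5p 22, and they are identical over the first 13. How reads that fit more than one member were assigned is not given in the sources used here, so the split between miR-99a-5p and miR-100-5p carries that uncertainty.

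The chromosome 19 cluster was compact. MIR99B (chr19:51692612-51692681), MIRLET7E (chr19:51692786-51692864) and MIR125A (chr19:51693254-51693339) lie within 728 bp on the plus strand of GRCh38, in intronic sequence of the protein-coding gene SPACA6. On chromosome 21, MIR99A (chr21:16539089-16539169), MIRLET7C (chr21:16539828-16539911) and MIR125B2 (chr21:16590237-16590325) span 51237 bp on the plus strand, in introns of the noncoding host gene MIR99AHG. On chromosome 11, MIR100 (chr11:122152229-122152308), MIRLET7A2 (chr11:122146522-122146593) and MIR125B1 (chr11:122099757-122099844) span 52552 bp on the minus strand, in introns of the noncoding host gene MIR100HG. MiR-125b-5p is made with the same letters by MIR125B1 and MIR125B2, so its reads cannot be given to chromosome 11 or 21 directly.

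MiR-125b-5p, miR-99a-5p and miR-100-5p, the members made on chromosomes 21 and 11, were scarce in control libraries and 6.43-fold to 11.6-fold higher in the overexpression libraries. MiR-99b-5p of chromosome 19 was abundant in both groups and 2.12-fold higher with overexpression. MiR-125a-5p, its neighbor in the same cluster, did not pass the test, and its libraries overlapped between the groups. In all, 4 of the 5 members were at least 2-fold higher, against 15.6% of the 1115 miRNAs with a mean normalized count of at least 1, and 0 were at least 2-fold lower, against 14.7%. The same 4 passed an adjusted p of 0.05 in limma, where 1.88% of all miRNAs tested were called higher and 3.05% lower. With any 1 library left out, overexpression A or B or control A or B, 0 of the 5 passed limma, and the adjusted p of these 4 members was 0.0910 to 0.349. It was 0.122 to 0.332 with a prior variance that did not follow the mean. Limma has little power with a library left out: for simulated data, 2 libraries against 1 called 26.5% of 8-fold changes, and 2 against 2 called 89.8%. In these 4 members both overexpression libraries lay above both control libraries, as in 22.4% of all miRNAs tested. The members were chosen with earlier results of these data known, so counts over them describe and do not test.

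MiR-99a-5p, the chromosome 21 member of the miR-99/100 family, had 153 and 120 reads in the overexpression libraries, against 19 and 23 in control libraries. These are normalized counts of 139 and 186 with overexpression and 15.2 and 19.5 in control. The groups stood far apart and the 2 libraries of each group stayed close, 1.34-fold apart with overexpression and 1.28-fold in control. Means were 162 ± 33.2 with overexpression and 17.4 ± 3.04 in control (SD, n = 2 libraries each), a 9.36-fold difference and a log2 ratio of 3.15 on the scale of means plus 1. The limma test on log2 normalized counts plus 1 gave a log2 difference of 3.15, with a standard error of 0.36 and an adjusted p of 0.00284. From pooled reads the ratio was 9.04, with an exact 95% binomial interval of 6.51 to 12.8 for counting error only. Among 1115 miRNAs it ranked 11 by log2 ratio from the highest.

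MiR-100-5p, the chromosome 11 member of the same family, was the scarcest of the 5. It had 93 and 32 reads with overexpression and 6 and 8 in control, or normalized counts of 84.5 and 49.6 against 4.80 and 6.79. Both overexpression libraries lay above both control libraries, although library A held 1.70 times the level of library B among them. Means were 67.0 ± 24.7 with overexpression and 5.80 ± 1.40 in control (SD, n = 2 each), an 11.6-fold difference and a log2 ratio of 3.32. In limma the log2 difference was 3.29, with a standard error of 0.53 and an adjusted p of 0.0132. The small number of control reads left a wide interval: the ratio of pooled reads was 12.4, between 7.13 and 23.4. A pseudocount of 5 in place of 1 brought its log2 ratio to 2.74. MiR-100-5p ranked 9 of 1115.

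MiR-125b-5p, made on chromosomes 11 and 21, had 143 and 76 reads in the overexpression libraries against 28 and 19 in control libraries. Its normalized counts were 129.9 and 118 with overexpression and 22.4 and 16.1 in control. The overexpression libraries were nearly level and both were well above the control libraries. Means of 124 ± 8.58 with overexpression and 19.3 ± 4.45 in control (SD, n = 2 each) differed 6.43-fold, a log2 ratio of 2.62. The log2 difference in limma was 2.64, with a standard error of 0.36 and an adjusted p of 0.00734. Its ratio of pooled reads was 6.48, with an interval of 4.71 to 9.08, and it ranked 23 of 1115.

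MiR-99b-5p had the highest mean of the 5 in both groups, although miR-125a-5p lay above it in control library A. It had 4104 and 1996 reads with overexpression and 1837 and 2057 in control, or normalized counts of 3728 and 3092 with overexpression and 1470.5 and 1745 in control. The reads of overexpression library B were close to those of the control libraries, and the gap between groups appeared once the lower depth of that library was taken into account. Means of 3410.0 ± 449 with overexpression and 1608 ± 194 in control (SD, n = 2 each) gave a log2 ratio of 1.08, and limma gave 1.08 with a standard error of 0.18 and an adjusted p of 0.0152. The interval of its pooled ratio was narrow, 2.18 between 2.09 and 2.27. Its position next to the 2-fold line was sensitive to the scaling, with log2 ratios of 0.99 under trimmed mean of M values, 0.93 under upper quartile and 1.32 under total reads. It was also under 2-fold without overexpression library A, at 0.94, and without control library A, at 0.97.

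MiR-125a-5p, which shares its cluster with miR-99b-5p, gave 1946 and 1100 reads with overexpression and 2174 and 1381 in control. Normalized counts were 1768 and 1704 with overexpression and 1740.3 and 1172 in control. The value of control library A lay between the 2 overexpression values, and control library B stood below the other 3. Means of 1736 ± 44.8 with overexpression and 1456 ± 402 in control (SD, n = 2 each) gave a log2 ratio of 0.25. The limma log2 difference was 0.28 with a standard error of 0.21 and an adjusted p of 0.579, and it did not pass the test. Without control library A the log2 ratio was 0.57, and without control library B it was −0.0037.

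**Figure D1:**
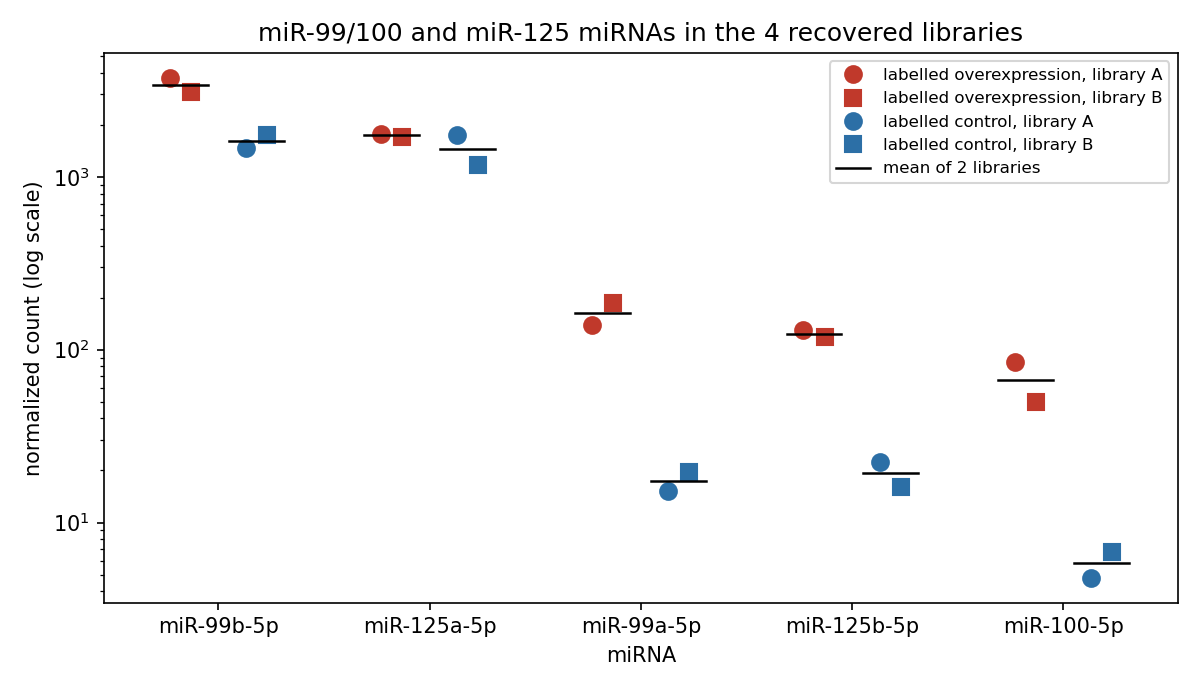
Normalized counts on a log axis of the 5 miRNAs in the 4 recovered libraries, overexpression in red left of control in blue, with circles for library A, squares for library B and a line at each group mean. MiR-99a-5p, miR-125b-5p and miR-100-5p sit well apart between the groups, with means of 162, 124 and 67.0 with overexpression and 17.4, 19.3 and 5.80 in control, while the points of miR-125a-5p overlap.

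By level, the order in the overexpression libraries was miR-99b-5p, miR-125a-5p, miR-99a-5p, miR-125b-5p and miR-100-5p, and no neighbors in it overlapped between libraries. In the control libraries, miR-99b-5p and miR-125a-5p overlapped at the top, and miR-125b-5p and miR-99a-5p overlapped below them. MiR-100-5p was lowest in both groups. Levels of different miRNAs are compared here as reads, for mature forms of 22 or 24 bases.

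Ranked among all miRNAs of the same library, the scarce members differed most between groups. MiR-99a-5p was at rank 258 and 246 by reads in the overexpression libraries, against 510 and 477 in control libraries. MiR-100-5p was at rank 312 and 378 with overexpression, against 724 and 629 in control. MiR-125a-5p stayed within ranks 114 to 136 of all 4 libraries. In sum, the 5 members took 0.314% and 0.282% of miRNA reads with overexpression and 0.155% and 0.131% in control.

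**Figure D2:**
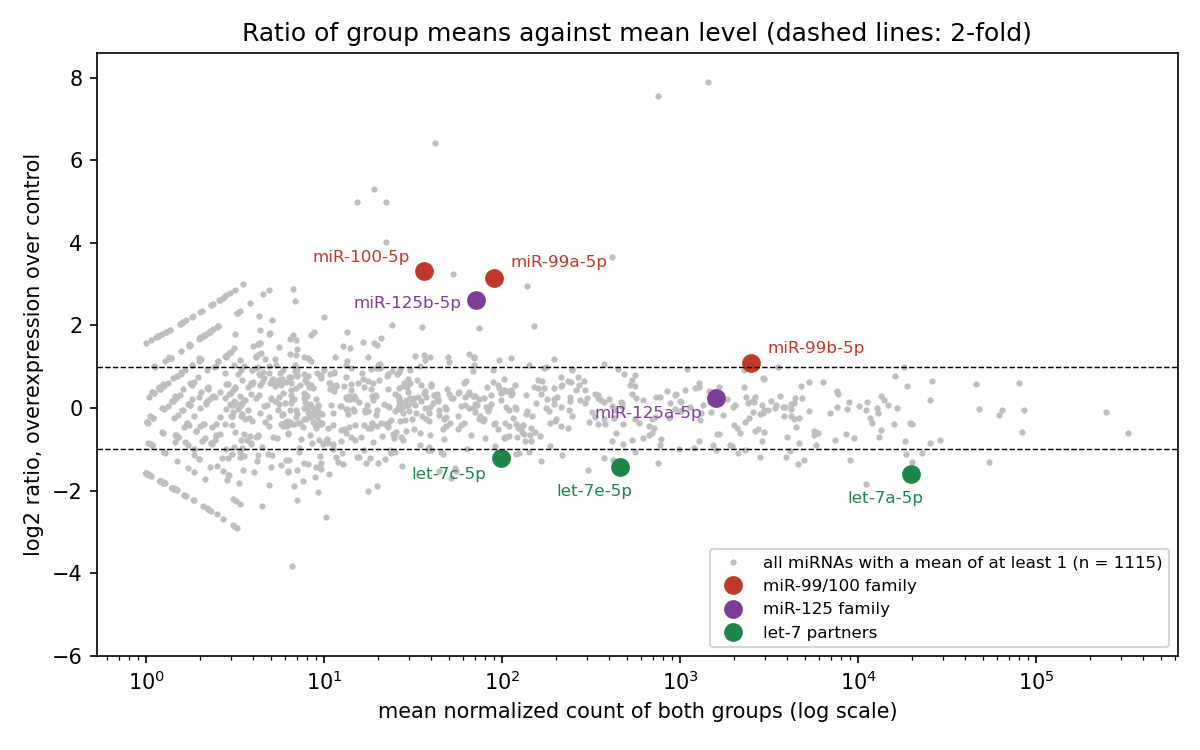
Log2 ratio of overexpression over control against the mean normalized count of both groups on a log axis, for 1115 miRNAs in gray, the miR-99/100 family in red, the miR-125 family in purple and 3 let-7 partners in green. The scarce members lie at log2 ratios of 2.62 to 3.32, the abundant miR-99b-5p and miR-125a-5p at 1.08 and 0.25, and the let-7 partners below −1.

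In each seed family, the scarce members took a larger share of reads with overexpression. MiR-99b-5p held 94.3% and 92.9% of miR-99/100 reads in the overexpression libraries, against 98.7% and 98.5% in control libraries. The share of miR-99a-5p was 3.52% and 5.59% with overexpression and 1.02% and 1.10% in control. That of miR-100-5p was 2.14% and 1.49% with overexpression and 0.322% and 0.383% in control. For both, the overexpression shares lay above the control shares in every library, yet the chromosome 19 member still supplied most reads of the family.

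In the miR-125 family, miR-125b-5p supplied 6.85% (exact 95% interval 5.80% to 8.01%) and 6.46% (5.13% to 8.02%) of reads in the overexpression libraries. In control libraries it supplied 1.27% (0.847% to 1.83%) and 1.36% (0.819% to 2.11%). Intervals did not overlap between groups and overlapped fully within them. Summed over the family, the miR-99/100 seed reached normalized counts of 3951 and 3328 with overexpression and 1490.5 and 1772 in control, a log2 ratio of 1.16. The miR-125 seed reached 1897 and 1822 with overexpression and 1763 and 1188 in control, a log2 ratio of 0.33. The miR-99/100 sum thus followed miR-99b-5p, and the miR-125 sum followed miR-125a-5p.

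The clusters were then compared by ratios of 2 miRNAs within a library, which do not depend on how libraries are scaled. Of 5 pairs tested by the exact permutation test over libraries, each gave p = 0.333, the smallest two-sided value that 2 libraries against 2 allow, and 0.333 after Benjamini-Hochberg adjustment over the 5. No pair could therefore pass 0.05, and the ratios are given with their spread.

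The miR-99a-5p and miR-100-5p sum, from chromosomes 21 and 11, stood against miR-99b-5p of chromosome 19 at log2 ratios of −4.06 and −3.71 in the overexpression libraries, against −6.20 and −6.05 in control libraries. The ratio was 4.72-fold higher with overexpression, a log2 difference of 2.24 that ran between 2.07 and 2.42 over 7 alternatives. MiR-125b-5p against miR-125a-5p of chromosome 19 stood at −3.77 and −3.86 with overexpression and −6.28 and −6.18 in control. This ratio was 5.35-fold higher with overexpression, a log2 difference of 2.42 with a range of 2.36 to 2.47 over 5 alternatives. In both families the ratio to the chromosome 19 member was higher in both overexpression libraries than in either control library.

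Within the chromosome 19 cluster, the pair miR-99b-5p and miR-125a-5p did not keep a steady ratio. MiR-99b-5p was present at 2.11 and 1.81 times the reads of miR-125a-5p with overexpression and at 0.845 and 1.49 times in control. The log2 difference of 0.80 was near the spread of the control libraries, whose log2 ratios were −0.24 and 0.57, and it fell to 0.39 when control library A was left out. Between chromosomes 21 and 11, miR-99a-5p was at 1.65 and 3.75 times the reads of miR-100-5p with overexpression and at 3.17 and 2.88 times in control. These values overlapped between the groups, with a log2 difference of −0.28.

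**Figure D3:**
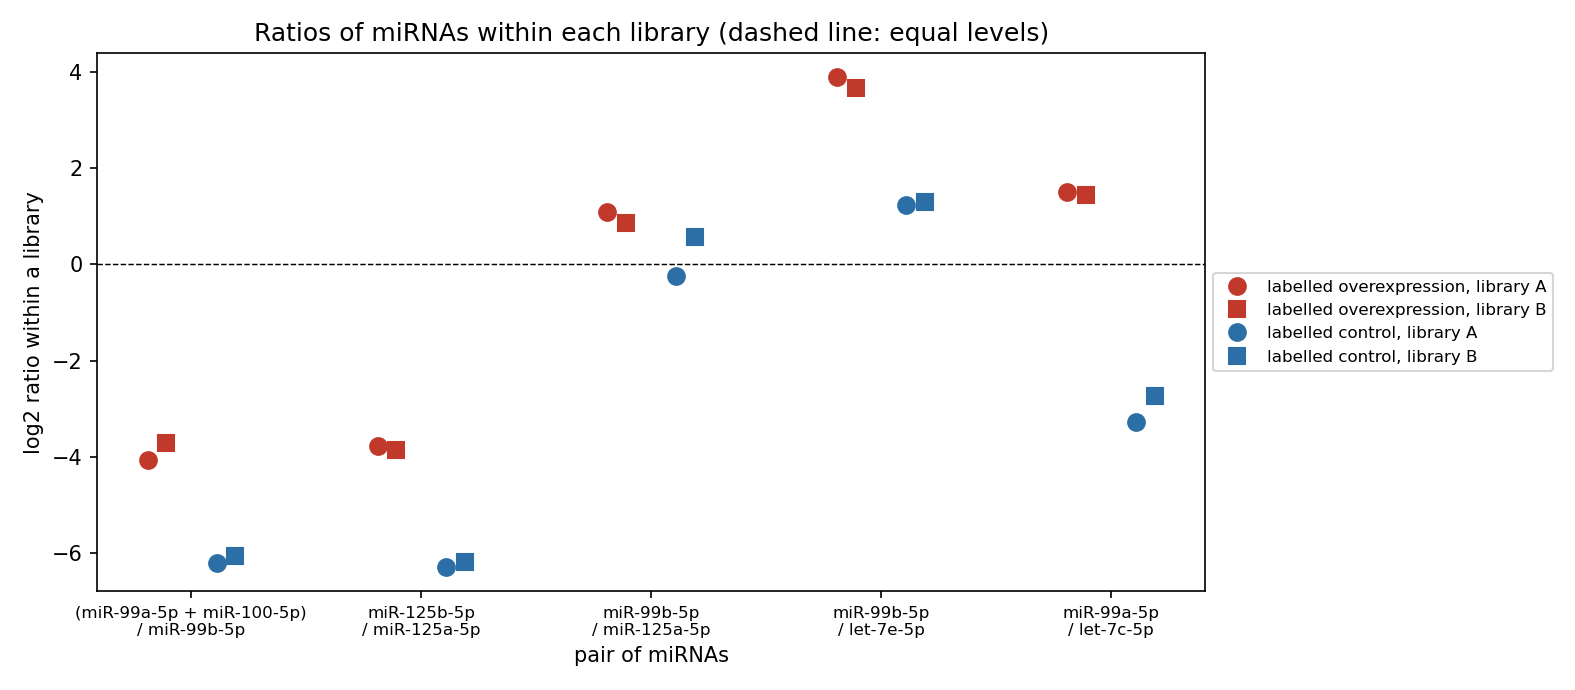
Log2 ratio of 2 miRNAs within each library for 5 pairs, overexpression in red left of control in blue, with circles for library A, squares for library B and a dashed line at equal levels. The overexpression points lie above the control points in all 5 pairs, by a log2 difference of 2.24 and 2.42 for the 2 comparisons between clusters and of 0.80 for miR-99b-5p against miR-125a-5p.

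Passenger arms, the strands of the hairpins that are mostly discarded, give a second reading of each locus. MiR-99b-3p, from the other arm of MIR99B, had 140 and 82 reads with overexpression and 102 and 88 in control, or normalized counts of 127 and 127 with overexpression and 81.7 and 74.7 in control. Both overexpression libraries were above both control libraries, with a log2 ratio of 0.69, but it did not pass the test (limma log2 difference 0.70, standard error 0.28, adjusted p = 0.222). Its 5p arm held 29.3 and 24.3 times as many reads with overexpression and 18.0 and 23.4 times as many in control.

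MiR-125a-3p had normalized counts of 32.7 and 23.2 with overexpression and 19.2 and 29.7 in control. These overlapped, as those of miR-125a-5p did, and the log2 ratio was 0.19 (limma log2 difference 0.20, adjusted p = 0.878). The arms that could separate the MIR125B loci are distinct in sequence from each other.
miR-125b-1-3p (chromosome 11): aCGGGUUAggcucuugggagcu
miR-125b-2-3p (chromosome 21): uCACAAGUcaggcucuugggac
MiR-125b-1-3p had 1 and 0 reads with overexpression and 0 and 0 in control, and miR-125b-2-3p had 0 and 0 reads with overexpression and 3 and 1 in control. A count of 0 over both libraries allows up to 3 reads, 1.72 as a mean normalized count with overexpression and 1.24 in control, so no difference in either arm was detectable at this depth. The locus behind the higher miR-125b-5p was thus not resolved, and miR-99a-3p and miR-100-3p were not analysed here.

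All 3 let-7 partners of the clusters had lower values in both overexpression libraries than in either control library, as did 23.8% of all miRNAs tested, and 2 of them passed limma as lower, as did 3.05%. Their sequences share 1 seed, and counted from the 5′ end of let-7a-5p, let-7c-5p differs by A19G and let-7e-5p by U9G.
let-7a-5p: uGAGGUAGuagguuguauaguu
let-7c-5p: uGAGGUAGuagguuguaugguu
let-7e-5p: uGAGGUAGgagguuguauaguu
Let-7e-5p, which lies between MIR99B and MIR125A, had normalized counts of 253 and 246 with overexpression and 626 and 713 in control. Both overexpression libraries lay far below both control libraries, with a log2 ratio of −1.42 (limma log2 difference −1.42, standard error 0.20, adjusted p = 0.00807). Let-7c-5p, the neighbor of MIR99A, had 49.0 and 68.2 with overexpression and 146 and 129 in control, with no overlap and a log2 ratio of −1.22, but it missed the threshold (limma log2 difference −1.23, standard error 0.31, adjusted p = 0.0628). Let-7a-5p, with 10473 and 9162 with overexpression and 27428 and 31880.0 in control, passed as lower (limma adjusted p = 0.0018). It is made from 3 loci, on chromosomes 9, 11 and 22, so its reads do not report MIRLET7A2 of the chromosome 11 cluster alone. Since let-7a-5p had over 100 times the reads of let-7c-5p, the let-7c-5p values also carry the uncertainty of how near-identical reads were assigned.

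Ratios to these neighbors were next taken within a library. MiR-99b-5p was present at 14.7 and 12.6 times the reads of let-7e-5p with overexpression and at 2.35 and 2.45 times in control. The ratio was 5.67-fold higher with overexpression, a log2 difference of 2.50 with a range of 2.39 to 2.62 when each library was left out. MiR-99a-5p was at 2.83 and 2.73 times the reads of let-7c-5p with overexpression and at 0.104 and 0.151 times in control. Here the order of the pair turned over between groups, with a 22.2-fold higher ratio and a log2 difference of 4.47 (range 4.20 to 4.74). In both clusters, mature miRNAs from neighboring hairpins on 1 strand thus stood in different proportion in the 2 groups. Lower let-7 values were not particular to these clusters, however. Let-7b-5p, let-7d-5p, let-7f-5p, let-7g-5p and let-7i-5p share the let-7 seed and are not among the partners. By normalized counts, each of them was also lower in both overexpression libraries than in either control library.

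The miRNAs closest in pattern to each member were found by Euclidean distance between centered log2 normalized counts plus 1 in the 4 libraries, among 578 others with a mean of at least 10. MiR-143-3p, which is known from smooth muscle and other mesenchymal cells, was the closest to all 3 scarce members. It lay at a distance of 0.253 from miR-99a-5p, of 0.619 from miR-125b-5p and of 0.814 from miR-100-5p. Its normalized counts were 223 and 268 with overexpression and 28.8 and 33.1 in control. MiR-486-5p, a miRNA of red blood cells and muscle, came next for miR-99a-5p at 0.640 and for miR-100-5p at 1.08, and miR-663a came next for miR-125b-5p at 0.891.

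Among the members themselves, miR-99a-5p lay 0.844 from miR-100-5p and 0.854 from miR-125b-5p, but 2.12 from its seed relative miR-99b-5p. MiR-125a-5p and miR-125b-5p lay 2.36 apart. MiR-99b-5p was closest to miR-4649-5p, at 0.181, and miR-3691-5p, at 0.310. MiR-125a-5p was closest to miR-342-5p, at 0.178, and miR-642a-3p, at 0.183. With 4 libraries in 2 groups, a short distance says mainly that the difference between groups was of like size.

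MiR-125b-5p, miR-99a-5p and miR-100-5p are also abundant in fibroblasts and smooth muscle, and miRNAs of other tissues moved with them. The marker lists used here and below were chosen with earlier results of these data known, so counts over them describe and do not test. Of 8 listed miRNAs of stromal cells and smooth muscle, 6 were at least 2-fold higher with overexpression and 0 lower, against 15.6% higher and 14.7% lower of all miRNAs, with a median log2 ratio of 2.46 against 0.06 over all 1115 miRNAs. Their summed normalized counts were 585 and 643 with overexpression and 175 and 188 in control. In limma 3 of the 8 passed as higher, against 1.88% of all miRNAs. One of these was miR-10b-5p, the miRNA at the center of the study, with 107 and 62 reads with overexpression and 20 and 3 in control, or mean normalized counts of 96.6 with overexpression and 9.28 in control. The direction of miR-10b-5p, too, rests on the sample labels. It runs against the study, which reports this miRNA as lowered by PELATON overexpression. MiR-145-3p was at 0 in both control libraries, but it had only 8 and 2 reads with overexpression and limma did not call it (adjusted p = 0.212). MiR-199b-5p, with 43.6 and 41.8 with overexpression and 44.0 and 34.8 in control, overlapped.

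Of 7 listed miRNAs of striated muscle, 5 were measured and 4 were at least 2-fold higher with overexpression, against 15.6% of all miRNAs. All 4 passed limma as higher, against 1.88% of all miRNAs. The summed normalized counts of the 5 were 4078 and 4891 with overexpression and 56.0 and 33.1 in control, with a median log2 ratio of 6.41. With overexpression, most of this sum was miR-1-3p, at 2826 and 2869, and miR-133a-3p, at 1110 and 1867. MiR-133b and miR-206, which are typical of skeletal muscle, were at 0 in both control libraries. MiR-499a-5p, with 30.9 and 21.7 with overexpression and 27.2 and 26.3 in control, overlapped. The summed levels of both lists were thus higher in both overexpression libraries, and their part in the values of these 3 members was not tested. In such bulk libraries, more cells of a type and more RNA per cell cannot be told apart. The list of T cell and leukocyte miRNAs had a median log2 ratio of −0.08. In it 0 of 8 passed 2-fold, against 15.6% higher and 14.7% lower of all miRNAs. Limma called 1 of the 8 higher, against 1.88%, and 1 lower, against 3.05%. Both overexpression libraries lay below both control libraries in 4 of the 8 (miR-142-3p, miR-142-5p, miR-150-5p and miR-181a-5p), against 23.8% of all miRNAs tested, and above them in 1, against 22.4%.

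The study was set up around pairing between PELATON and miRNAs, so the annotated transcripts were searched for complements of the seeds. GENCODE on GRCh38 gives 5 transcripts of PELATON, under the name SMIM25, and the one the study names as PELATON is the shortest of them. Which sequence the lentivirus carried is not given in the sources used here. None of the 5 held TACGGGT, the complement of bases 2 to 8 of the miR-99/100 family, or CTCAGGG, that of the miR-125 family, on the sense strand. In noncoding transcripts within 10% of the length of the longest one, 2010 bases, TACGGGT occurred in 1.41% and CTCAGGG in 20.3%. For the shortest, the one the study names, of 539 bases, these shares were 0.223% and 6.03%. The absence says only that these letters are not in these transcripts.

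**Figure D4:**
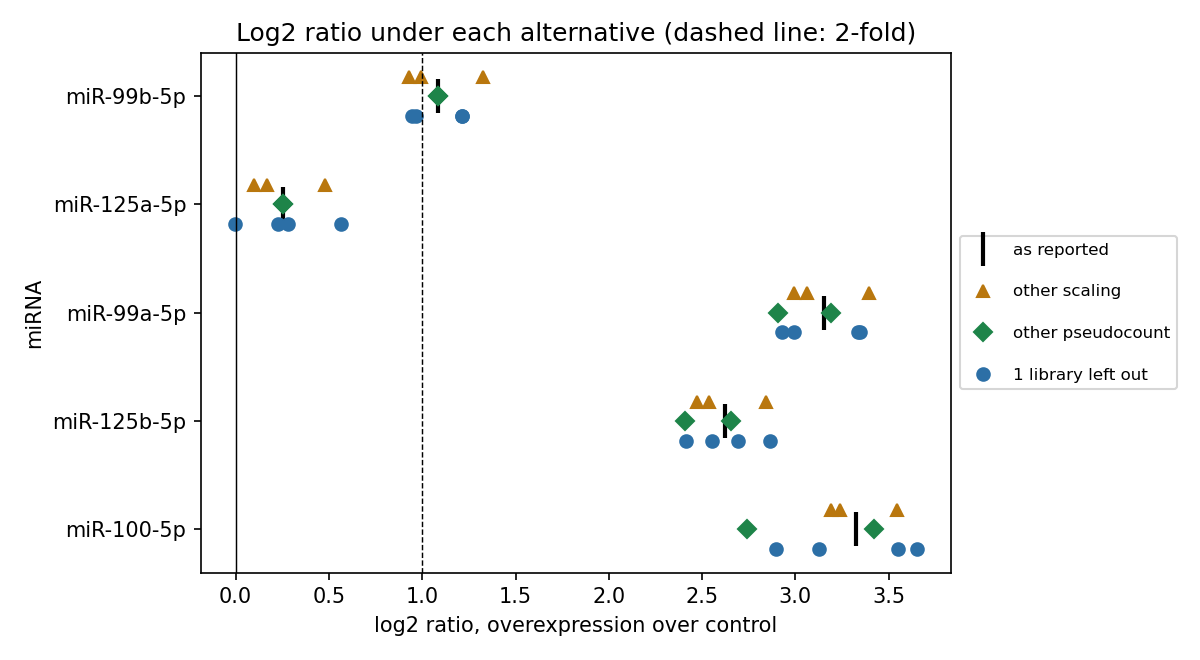
Log2 ratio of overexpression over control of each member as reported (black bar), under other scalings (triangles), under other pseudocounts (diamonds) and with 1 library left out (circles), with a solid line at equal levels and a dashed line at 2-fold. MiR-99a-5p, miR-125b-5p and miR-100-5p stay between 2.41 and 3.65 throughout, miR-99b-5p lies on either side of 2-fold between 0.93 and 1.32, and miR-125a-5p runs from −0.0037 to 0.57.

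The direction of the 4 members other than miR-125a-5p held under all 9 alternatives tried for each.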

How the data were processed

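Small RNA libraries were made from total RNA of Jurkat cells with a small RNA kit by the study's methods, whereas an mRNA kit is described in the labels. The authors counted reads per mature miRNA, scaled them by the size factors of DESeq and deposited, for each group, the mean of these normalized counts (a signal per miRNA); the submitters' notes name the build GRCh38.p14. The aligner, the adapter trimming, the miRNA annotation and the handling of reads that fit several miRNAs are not given in the sources used here. Deposited columns with the authors' ratio (control over overexpression), its log2, the p-value and the adjusted p-value were not used.

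Each group column consists of whole multiples of 2 steps, 1 per library. Solving for whole reads gave a single answer for 100% of values in both groups (relative tolerance 1e-12, absolute tolerance 1e-09), and size factors of 1.10 and 0.645 for overexpression and 1.25 and 1.18 for control. Log2 ratios between groups were formed as overexpression over control after adding a pseudocount of 1, so that those of scarce miRNAs come out too small. Fold differences between means, ratios of pooled reads and ratios within a library were formed without a pseudocount. Libraries were compared with limma 3.58.1 in R 4.3.3 (trended prior variance, two-sided, Benjamini-Hochberg over the 1115 miRNAs whose mean was at least 1). Ratios within a library used the exact permutation test. Intervals are exact binomial (Clopper-Pearson, 95%), cover counting error only, and were formed from pooled reads scaled by size factors. Scripts were tested on simulated data.

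Named miRNAs were the members, the passenger arms and let-7 partners of their hairpins, the 2 miRNAs nearest in pattern to each member, and marker lists of stromal, striated muscle and T cell miRNAs. Members and lists were chosen with earlier results of these data known. Alternatives were other scalings, pseudocounts, thresholds, filters, an untrended prior variance and leaving out each library; leaving out libraries for the last 3 within-library pairs was added after the data were seen. Mature sequences were matched to RefSeq by name and hairpin positions to GENCODE.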

Additional observations from a re-analysis of the deposited data

How the results depend on the processing

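Under limma, the number of members past an adjusted p of 0.05 was 4 under 8 alternatives, namely 4 scalings (trimmed mean of M values, upper quartile, total reads, recomputed median of ratios), pseudocounts of 0.5 and 5, no filter and a mean of at least 10. It was 0 with an untrended prior variance, and the cause was not tested. When a library is left out, the lone library of a group is assumed to vary like the other group, and the test has little power. For simulated data, 2 libraries against 1 called 0% of 2-fold, 4.17% of 4-fold and 26.5% of 8-fold changes. With 2 libraries against 2, these shares were 42.9%, 55.1% and 89.8%. A call lost on leaving out a library thus cannot tell a weak difference from too few libraries. At an unadjusted p under 0.05, limma then counted 4 members with the untrended prior variance and 4 or 5 with a library left out. Over the whole table, limma called 55 miRNAs, 0 with the untrended prior variance, 24 under total reads, 75 under upper quartile, and 0 without overexpression library A, overexpression library B or control library A but 70 without control library B. The number of members at least 2-fold higher was 3 or 4 under all 12 alternatives. The median log2 ratio of all miRNAs was 0.06, and 0.27 under total reads, so a log2 ratio of 1.32 for miR-99b-5p under that scaling stands against a higher median. No paired analysis was possible because GEO lists 1 sample in each group and the recovered libraries carry no replicate numbers. Depth limits miR-100-5p, with 6 and 8 control reads, and the arms of the MIR125B hairpins.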

Other observations

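Of the let-7 arms, let-7e-3p had 6 and 0 reads in the overexpression libraries, against 7 and 14 in control libraries, and a log2 ratio of −1.39. It reached −3.28 when overexpression library A was left out, and limma did not call it (adjusted p = 0.426). The sum of miR-99a-5p and miR-100-5p was 1.72 and 2 times the reads of miR-125b-5p with overexpression and 0.893 and 1.63 times in control, a log2 difference of 0.62. MiR-99a-5p alone against miR-99b-5p gave a log2 difference of 2.14 and miR-100-5p alone one of 2.42.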
